A study of Homo sapiens with 12 samples.

Results

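The genes described here are 9 components of the MHC class I pathway: the heavy chains HLA-B, HLA-C, HLA-E and HLA-F, the light chain B2M, the peptide transporter subunits TAP1 and TAP2, the loading factor TAPBP and the class I transactivator NLRC5. They were taken as the rows of the count table whose Ensembl identifiers carry these symbols, and 9 of the 9 were found among 60669 identifiers. All of them were among the 16393 genes that passed a filter on low counts. HLA-F passed it only through the interferon-treated libraries.

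The RNA came from HT1080, a human fibrosarcoma line. Every library was made from cells that stably carried dCas9, a Cas9 that binds DNA without cutting it, together with 1 guide RNA, and all cells were grown under blasticidin and puromycin selection. The LTR8B guide was directed at an endogenous retroviral long terminal repeat of that family within the first SP140 intron, and the other guide at GFP as a control. There were 4 libraries of LTR8B cells given interferon beta (IFNB, 10 U/mL for 4 h), 4 of untreated LTR8B cells, 2 of GFP cells given IFNB and 2 of untreated GFP cells. The labels do not say whether replicates were separate cultures or whether a line was 1 clone, so every p-value measures only the spread between these samples, which may be technical.

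Total counts per library ran from 12404270 to 28801579, and mitochondrially encoded genes took 3.35% to 4.55% of them. Levels are given as CPM, counts per 1e+06 counts after TMM scaling, a correction for composition. SP140 was at 0.515 to 1.84 CPM in the 8 LTR8B libraries and at 29.8 to 32.0 CPM in the 4 GFP libraries, so each library matched its guide label (log2 fold change -4.61, SE 0.15, edgeR adjusted p = 1.40e-11, averaged over treatments). Of 7 mesenchymal markers, VIM, FN1, SPARC and PDGFRB averaged at least 1 CPM, and the 7 haematopoietic and 5 epithelial markers held none at that level; of 4 endothelial markers only PECAM1 did. Summed over the list, haematopoietic markers stood at 0.954 to 1.71 CPM in LTR8B IFNB, 1.08 to 1.34 in LTR8B untreated, 1.49 to 1.62 in GFP IFNB and 1.32 to 1.36 in GFP untreated libraries, and endothelial markers over all libraries at 5.57 to 11.3 CPM.

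MHC class I molecules show peptides from inside the cell to CD8 T cells and natural killer cells. Each is a heavy chain bound to B2M, and in the endoplasmic reticulum TAPBP (tapasin) holds the empty molecule beside the TAP1 and TAP2 transporter, which pumps in peptides cut by the proteasome. Interferons raise class I expression through interferon-stimulated response elements, bound by the interferon-activated complex ISGF3 and by IRF1, and through NLRC5, which acts on an enhanceosome of RFX, CREB family and NF-Y proteins at a conserved promoter module.

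The promoters are shown because they carry the letters on which this control is known to act. RefSeq windows (GRCh38.p14) reaching from 250 bases before to 50 bases after the start were used for 7 of the 9 genes, 8 windows in all since TAP1 had 2; HLA-E and NLRC5 were not analysed here. Stretches of 150 bases are printed for B2M (chr15:44711327-44711476, plus strand), HLA-B (chr6:31357220-31357369, minus strand) and HLA-C (chr6:31272133-31272282, minus strand), and of 30 bases for HLA-F (chr6:29723268-29723297, plus strand), TAP1 (chr6:32853816-32853845), TAP2 (chr6:32838778-32838807) and TAPBP (chr6:33314076-33314105), the last 3 on the minus strand. Each is written 5′ to 3′ on the gene's strand, and capitals mark exact matches, on either strand, to TTTC repeated after any 2 bases (interferon-stimulated response element), CCAAT (the NF-Y box) or TGACG (the cyclic AMP response element core).
HLA-B: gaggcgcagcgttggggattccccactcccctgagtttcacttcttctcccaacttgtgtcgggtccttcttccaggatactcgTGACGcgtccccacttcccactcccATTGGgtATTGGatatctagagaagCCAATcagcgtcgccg
HLA-C: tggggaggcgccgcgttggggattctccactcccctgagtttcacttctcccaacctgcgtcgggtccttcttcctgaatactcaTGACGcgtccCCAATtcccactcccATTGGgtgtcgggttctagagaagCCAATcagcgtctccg
HLA-F: ctccccagagTTTCTCTTTCtctcccaacc
B2M: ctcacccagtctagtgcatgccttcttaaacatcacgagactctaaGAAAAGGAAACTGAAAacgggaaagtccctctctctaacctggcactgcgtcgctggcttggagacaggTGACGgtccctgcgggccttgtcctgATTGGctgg
TAP1: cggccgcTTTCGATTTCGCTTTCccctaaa
TAP2: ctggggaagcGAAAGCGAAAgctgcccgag
TAPBP: tttggagGAAAGTGAAAGTGAAAggaggaa

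The response element letters were in 5 of the 7 genes (HLA-F, B2M, TAP1, TAP2 and TAPBP), against 3.58% of 35097 windows of the same length. In B2M, TAP1 and TAPBP they occurred as 2 matches that share bases. HLA-B and HLA-C held no exact match, which says only that these letters are not in their windows. CCAAT was in 5 of the 7 genes (34.6% of windows), and TGACG was in 4 (24.5%), namely HLA-B, HLA-C, B2M and TAP2. The gamma-activated site, TTC and GAA 3 bases apart, was found in 1 gene, in the downstream TAP1 window (7.66% of windows), and the NF-kB letters, GGG and CC 5 bases apart, in 6 genes (58.7% of windows). A match is a description of the sequence and not a bound site.

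**Figure D1:**
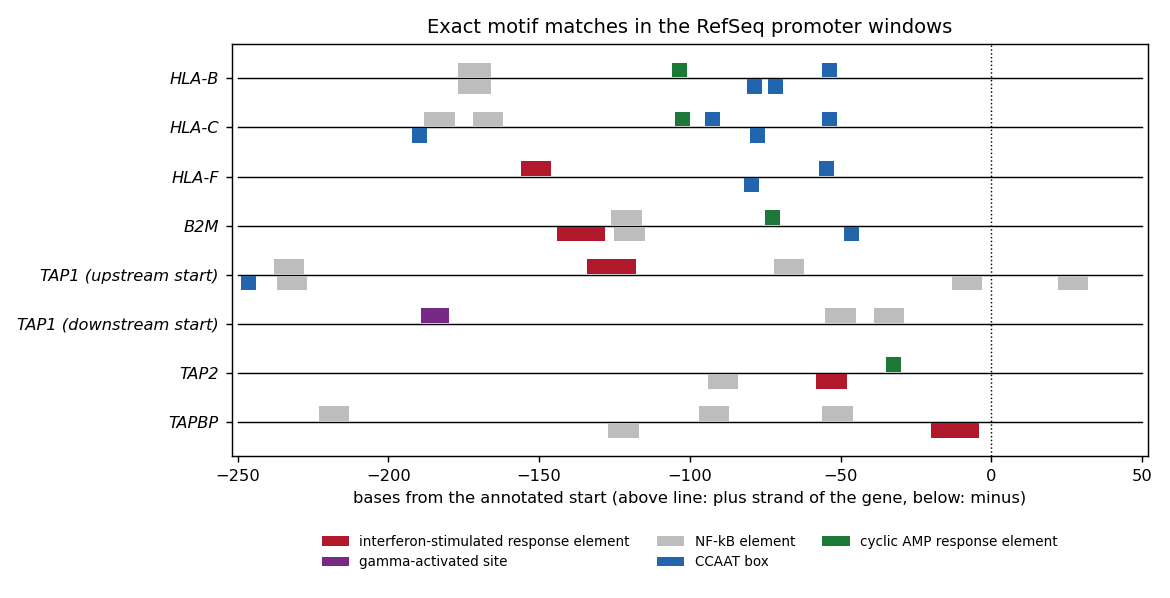
Exact motif matches in the 8 RefSeq promoter windows of 7 genes, drawn in bases from the annotated start (dotted line), with plus-strand matches above each line and minus-strand matches below. Response element letters (dark red) lie in the rows of HLA-F, B2M, TAP1 (upstream start), TAP2 and TAPBP, and HLA-B and HLA-C hold 3 and 4 CCAAT matches (blue).

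IFNB raised the 8 genes other than HLA-F in both lines. In LTR8B cells the rises ran from 1.40-fold for TAPBP to 7.22-fold for TAP1. HLA-F entered the test only through its treated libraries and so had to differ in this comparison; it is described by its counts and left out of the counts of genes here. In LTR8B cells 8 of the 8 rose by edgeR's quasi-likelihood test with Benjamini-Hochberg adjustment (adjusted p under 0.05), where 4.01% of all tested genes rose. In GFP cells 8 of the 8 rose, against 3.06% of all genes. Every IFNB library lay above every untreated library for 8 of the 8 genes in each line, which held for 6.16% of tested genes in LTR8B cells and, with fewer libraries, for 22.6% in GFP cells. The median log2 fold change of the 8 genes was 1.43 in LTR8B cells and 1.44 in GFP cells, beside -0.01 over all tested genes in each line. The responses of the lines share no library. In bulk RNA, a change in the share of responding cells and a change in RNA per cell cannot be told apart.

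**Figure D2:**
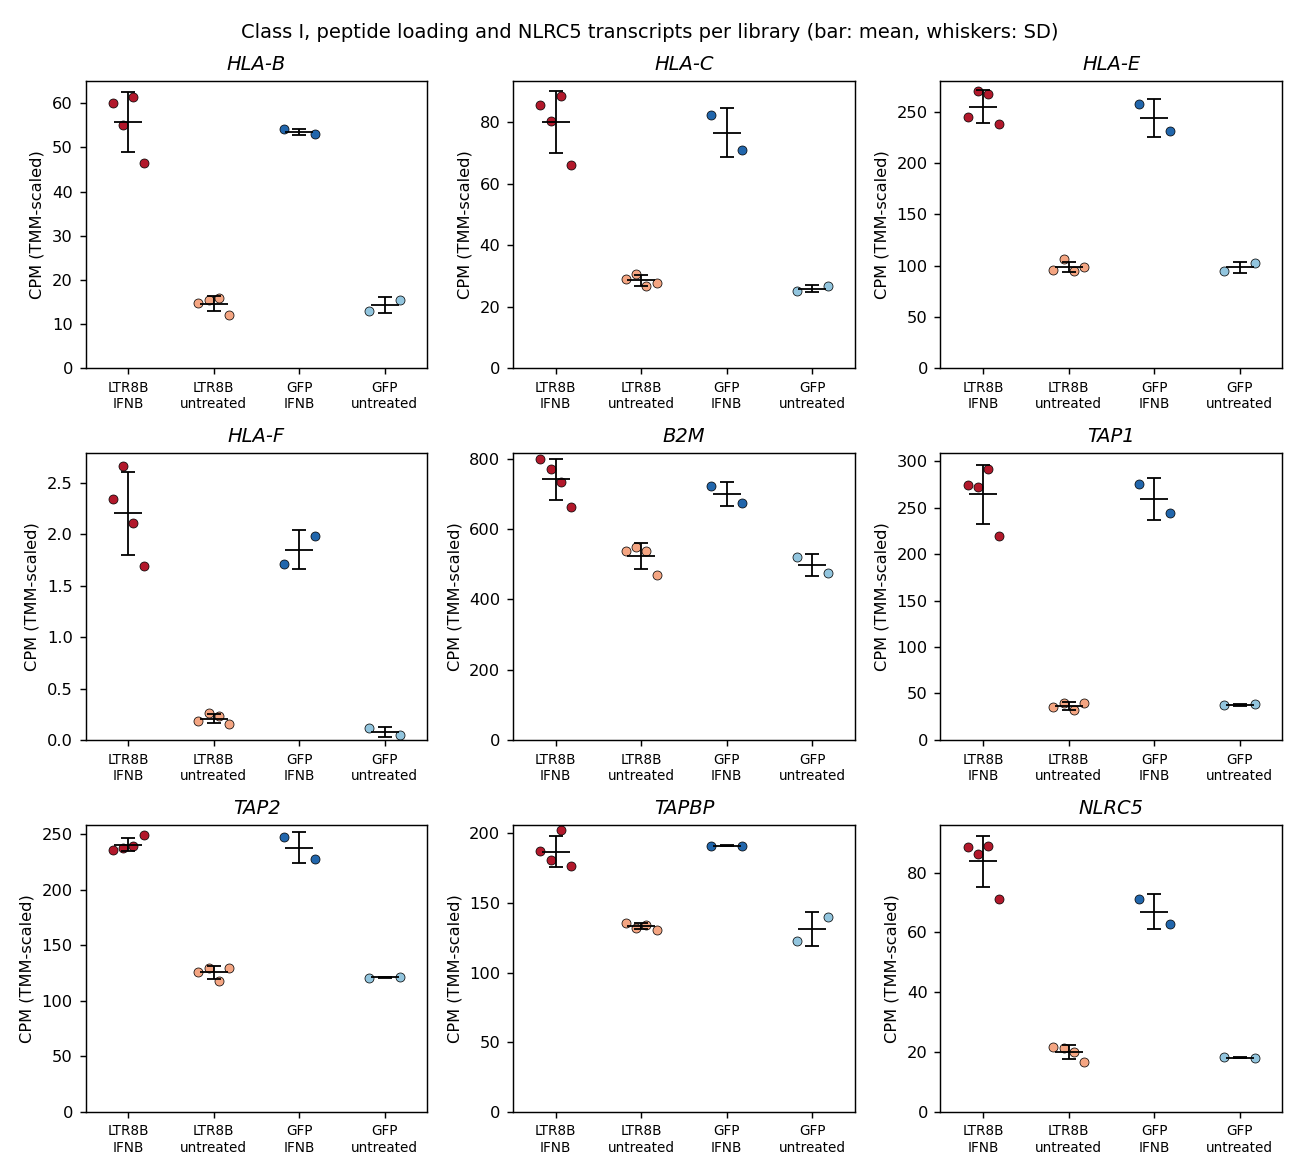
CPM of each of the 9 genes per library (linear axes from 0), with points for libraries, horizontal bars for group means and whiskers for SD; groups run from LTR8B IFNB and LTR8B untreated (4 libraries each) to GFP IFNB and GFP untreated (2 each). In every panel the IFNB libraries of a line lie above all untreated libraries of that line, with the narrowest gaps for B2M and TAPBP.

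Among the heavy chains, HLA-B (ENSG00000234745.11, chromosome 6, 31269491 to 31357188, minus strand, GENCODE 29 on GRCh38) is a classical molecule that presents peptides to CD8 T cells. Its level was 60.1, 55.1, 61.4 and 46.5 CPM in LTR8B IFNB libraries, against 14.8, 15.5, 15.9 and 12.1 CPM in LTR8B untreated libraries. In GFP cells it was 54.1 and 53.1 CPM with IFNB, against 12.9 and 15.5 CPM untreated. All treated libraries lay far above the untreated ones, and the groups did not overlap. HLA-B rose by 1.93 on the log2 scale in LTR8B cells (SE 0.10, adjusted p = 1.26e-10) and by 1.92 in GFP cells (SE 0.14, adjusted p = 2.89e-08).

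HLA-C (ENSG00000204525.16, chromosome 6, 31268749 to 31272130, minus strand), the classical heavy chain that is also the main ligand of killer immunoglobulin-like receptors, rose in both lines. LTR8B IFNB libraries held 85.5, 80.3, 88.7 and 65.9 CPM, against 29.05, 30.7, 26.8 and 27.8 CPM in LTR8B untreated libraries. GFP IFNB libraries held 82.2 and 71.0 CPM, against 25.0 and 26.7 CPM in GFP untreated libraries. The untreated values kept within a narrow band and the treated ones spread more, with LTR8B replicate 4 the lowest. The log2 rise was 1.49 in LTR8B cells (SE 0.09, adjusted p = 7.76e-10) and 1.57 in GFP cells (SE 0.12, adjusted p = 7.47e-08).

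HLA-E (ENSG00000204592.9, chromosome 6, 30489467 to 30494205, plus strand) displays leader peptides of other class I chains to the natural killer receptor NKG2A. It stood at 245, 270.2, 267 and 238 CPM in LTR8B IFNB libraries, against 96.2, 106, 95.2 and 98.4 CPM in LTR8B untreated libraries. It stood at 258 and 231 CPM in GFP IFNB libraries, against 94.6 and 102 CPM in GFP untreated libraries. No treated library came near an untreated one. The log2 rise was 1.37 in LTR8B cells (SE 0.06, adjusted p = 1.48e-11) and 1.31 in GFP cells (SE 0.09, adjusted p = 6.27e-09).

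HLA-F (ENSG00000204642.14, chromosome 6, 29722775 to 29738528, plus strand), a nonclassical heavy chain, was the least abundant of the 9. Its raw counts were 46, 57, 26 and 32 in LTR8B IFNB libraries, against 4, 5, 7 and 3 in LTR8B untreated libraries. They were 36 and 40 in GFP IFNB libraries, against 3 and 1 in GFP untreated libraries. At this depth untreated HLA-F was near the 3 counts that a count of 0 would still allow in 1 library. Pooled per group and scaled for depth, the ratio of IFNB to untreated was 10.6 in LTR8B cells (161 against 19 counts, exact 95% interval 6.58 to 18.1) and 22.1 in GFP cells (76 against 4 counts, 8.27 to 83.01), intervals that cover counting error only. The fitted log2 fold change was 3.36 in LTR8B cells and 4.38 in GFP cells, where it was 5.13 without GFP untreated replicate 1. These are descriptions, with no p, because of how HLA-F passed the filter.

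B2M (ENSG00000166710.20, chromosome 15, 44711487 to 44718877, plus strand), the light chain that every class I heavy chain needs, was the most abundant of the 9 and among the least changed. Its level was 799.8, 771, 735 and 664 CPM in LTR8B IFNB libraries, against 538, 549, 539 and 469 CPM in LTR8B untreated libraries. In GFP cells it was 724 and 676 CPM with IFNB, against 521 and 477 CPM untreated. Treated and untreated libraries did not overlap, but the gap between them was narrow for both lines. The log2 rise was 0.50 in LTR8B cells (SE 0.07, adjusted p = 5.11e-05) and 0.49 in GFP cells (SE 0.09, adjusted p = 0.00369). With the second untreated GFP library left out, the GFP rise was 0.43 and no longer passed (adjusted p = 0.0986 by edgeR).

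TAP1 (ENSG00000168394.11, chromosome 6, 32845209 to 32853978, minus strand), a subunit of the peptide transporter, changed most among the genes with more than 10 CPM. LTR8B IFNB libraries had 275, 272, 292 and 219 CPM, against 35.0, 40.0, 31.9 and 40.0 CPM in LTR8B untreated libraries. GFP IFNB libraries had 276 and 244 CPM, against 37.2 and 38.4 CPM in GFP untreated libraries. The rise was 2.85 on the log2 scale in LTR8B cells (SE 0.09, adjusted p = 9.70e-13) and 2.78 in GFP cells (SE 0.13, adjusted p = 2.29e-10). TAP1 exons overlap those of PSMB8-AS1 on the other strand, and whether counting used strand is not given in the sources used here.

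TAP2 (ENSG00000204267.16, chromosome 6, 32821833 to 32838780, minus strand), its partner in the transporter, moved much less. It was at 236, 238, 239.5 and 249 CPM in LTR8B IFNB libraries, against 126, 129, 118 and 129.9 CPM in LTR8B untreated libraries. It was at 248 and 228 CPM in GFP IFNB libraries, against 121 and 122 CPM in GFP untreated libraries. No treated library overlapped an untreated one, and the log2 rise was 0.94 in LTR8B cells (SE 0.05, adjusted p = 2.89e-10) and 0.98 in GFP cells (SE 0.07, adjusted p = 3.66e-08). Of its 31-base words, 36.0% are shared with an annotated readthrough transcript (ENSG00000250264.1), which had 45 to 258 counts per library, so some of its reads may be split between them.

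TAPBP (ENSG00000231925.12, chromosome 6, 33299694 to 33314387, minus strand), which bridges empty heavy chains to the transporter, rose least with B2M. It had 187, 181, 202 and 177 CPM in LTR8B IFNB libraries, against 136, 132, 134 and 131 CPM in LTR8B untreated libraries. It had 191 and 191 CPM in GFP IFNB libraries, against 123 and 140.2 CPM in GFP untreated libraries. The groups did not overlap, and the log2 rise was 0.49 in LTR8B cells (SE 0.06, adjusted p = 9.38e-06) and 0.54 in GFP cells (SE 0.08, adjusted p = 2.34e-04).

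NLRC5 (ENSG00000140853.15, chromosome 16, 56989485 to 57083531, plus strand), the transactivator of the class I promoters, was itself raised by IFNB. Its level was 88.6, 86.4, 88.9 and 71.2 CPM in LTR8B IFNB libraries, against 21.8, 21.3, 19.9 and 16.6 CPM in LTR8B untreated libraries. In GFP cells it was 71.0 and 62.9 CPM with IFNB, against 18.3 and 17.9 CPM untreated. Replicate 4 was the lowest LTR8B library in both treatments, and treated values stayed far above untreated ones. The log2 rise was 2.07 in LTR8B cells (SE 0.09, adjusted p = 1.04e-11) and 1.89 in GFP cells (SE 0.13, adjusted p = 1.02e-08).

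**Figure D3:**
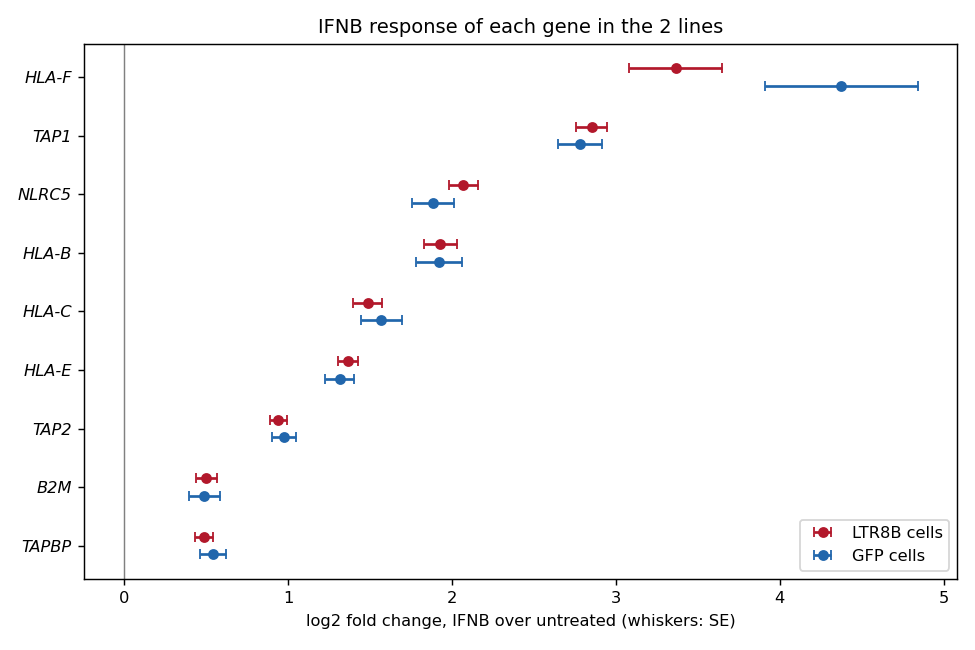
Log2 fold change of IFNB over untreated for each gene in LTR8B cells (red) and GFP cells (blue) from edgeR, with SE whiskers; genes are ordered by the LTR8B value. TAP1 at 2.85 and 2.78 stands well above its partner TAP2 at 0.94 and 0.98, and the HLA-F points rest on 19 and 4 untreated counts.

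Within a group, the same library was often the lowest for most of the 9 genes. LTR8B IFNB replicate 4 was the lowest of its group for 8 of the 9 genes, the exception being TAP2, and GFP IFNB replicate 2 was the lower of its pair for 8 of 9, the exception being HLA-F. In untreated LTR8B cells the lowest library was replicate 4 for 5 genes and replicate 3 for the other 4. How often each library was the lowest over all tested genes was not counted, so the pattern may not be particular to the 9 genes. Mitochondrially encoded genes took 3.97% of counts in LTR8B IFNB replicate 4, against 3.35% to 3.69% in the other 3 of its group, and the part of this in the levels was not tested. The calls in LTR8B cells held without replicate 4 of either treatment.

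The partners of 1 complex did not change in proportion. TAP1 counts per TAP2 count were 1.16, 1.14, 1.22 and 0.880 in LTR8B IFNB libraries, against 0.279, 0.309, 0.271 and 0.308 in LTR8B untreated libraries. In GFP cells the ratio was 1.11 and 1.07 with IFNB, against 0.308 and 0.316 untreated. The ratio was 3.62-fold higher with IFNB, averaged over libraries on the log scale, and no treated library overlapped an untreated one. TAP1 counts per TAPBP count averaged 1.41 ± 0.119 in LTR8B IFNB and 0.276 ± 0.0336 in LTR8B untreated libraries (SD, n = 4 each), and 1.36 ± 0.116 in GFP IFNB and 0.288 ± 0.0202 in GFP untreated libraries (SD, n = 2 each), a 4.92-fold rise.

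The 4 heavy chains summed, per B2M count, gave 0.491, 0.530, 0.571 and 0.530 in LTR8B IFNB libraries, against 0.261, 0.278, 0.256 and 0.295 in LTR8B untreated libraries. In GFP cells the values were 0.546 and 0.529 with IFNB, against 0.255 and 0.303 untreated. Heavy chain counts rose 1.94-fold relative to B2M counts, again without overlap. For each of these 3 ratios the exact two-sided permutation p over the 420 arrangements of treatment within each line was 0.00476, the smallest they can give, and 0.00476 after adjustment over the 3. The ratios were chosen after the levels had shown which genes rose more, so these p-values carry no weight as evidence. The ratios are in counts and not molecules, and do not depend on library scaling. HLA-F, which had to differ, is part of the heavy chain sum with few counts.

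**Figure D4:**
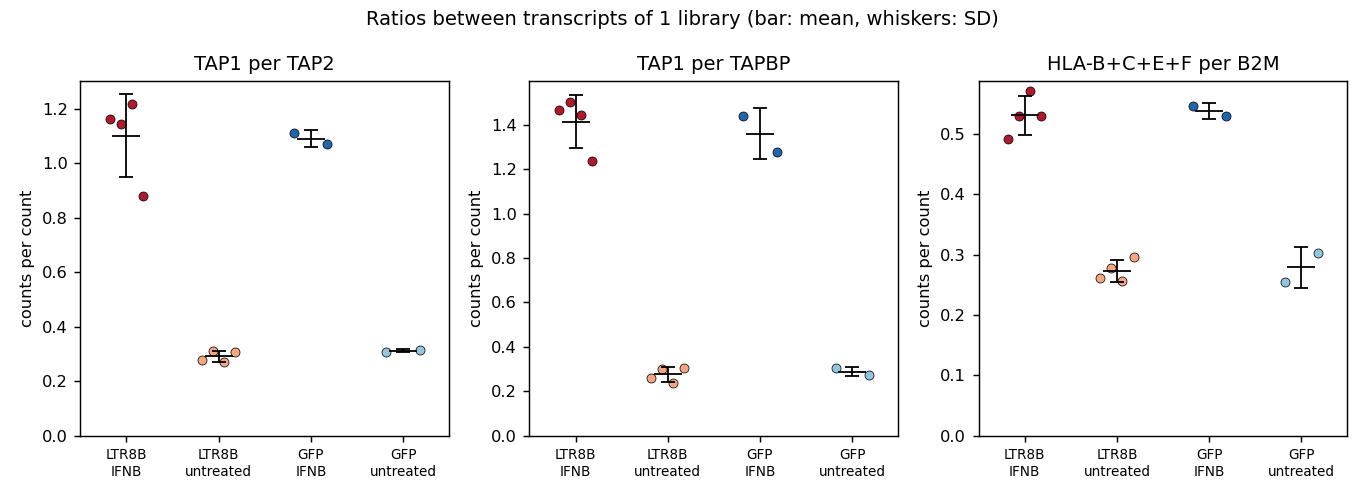
Counts of 1 transcript per count of another within each library (linear axes from 0): TAP1 per TAP2, TAP1 per TAPBP, and the summed heavy chains per B2M, with points for libraries, bars for means and whiskers for SD. IFNB libraries lie above the untreated ones in each panel, and LTR8B IFNB replicate 4 has the lowest treated TAP1 per TAP2 ratio at 0.880.

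Per kilobase of merged exon, the order of levels in LTR8B IFNB cells was B2M (122 ± 9.67 CPM per kb), HLA-E (85.7 ± 5.41), TAP1 (55.0 ± 6.55), TAP2 (37.7 ± 0.905), TAPBP (37.0 ± 2.19), HLA-C (31.95 ± 4.01), HLA-B (18.3 ± 2.21), NLRC5 (6.76 ± 0.684) and HLA-F (0.508 ± 0.0937; SD, n = 4 each). The neighbours TAP2 and TAPBP did not differ beyond their spread. The SD ranges of TAPBP and HLA-C overlapped too, but within every LTR8B IFNB library TAPBP stood above HLA-C per kilobase. In untreated LTR8B cells TAP1, at 7.64 ± 0.829 CPM per kb, stood below TAPBP (26.3 ± 0.434), TAP2 (19.7 ± 0.894) and HLA-C (11.4 ± 0.684). GFP cells had the same order untreated, and with IFNB only TAPBP (37.8 ± 0.0595) and TAP2 (37.3 ± 2.20), which did not differ beyond their spread, changed places. Divided by the longest coding transcript instead, a choice made after the data were seen, B2M stood further ahead (435 ± 34.5 CPM per kb in LTR8B IFNB cells) and HLA-C (51.5 ± 6.46) passed TAPBP (49.7 ± 2.95) and TAP2 (42.3 ± 1.02).

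Near-identical copies limit the heavy chain values. In GENCODE 29, 15.6% of the 31-base words of HLA-B, 20.1% of HLA-C, 11.5% of HLA-E and 7.85% of HLA-F (longest coding transcript) also occur in transcripts of other genes, the largest shares being with class I relatives. HLA-C transcripts held 10.8% of the HLA-B words and HLA-B transcripts 11.5% of the HLA-C words, and the annotated models of the pair overlap. TAPBP shared 12.5% of its words with 3364 genes, and TAP1 shared 1.71%. B2M and NLRC5 shared no word with another gene. HLA-F overlaps exons of HLA-F-AS1 on the opposite strand, and reads that lie within the overlap may not be told apart without strand.

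The guide comparison asks whether class I expression differed between cells with the LTR8B guide and GFP control cells. None of the 9 genes passed the threshold in either treatment, where 0.36% of tested genes passed in untreated cells and 0.354% with IFNB. Without HLA-F, the log2 differences of LTR8B over GFP ran from -0.05 (TAP1) to 0.15 (HLA-C) in untreated cells, and from -0.03 (TAPBP) to 0.32 (NLRC5) with IFNB. The 95% intervals of those 8 genes reached from -0.29 to 0.38 untreated and from -0.20 to 0.54 with IFNB, so these data allow differences of that size. At an unadjusted p under 0.05, 0 of the 9 differed in untreated cells and 1, NLRC5, with IFNB, while over all genes 1840 did in untreated cells and 1554 with IFNB.

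NLRC5 was the one gene whose LTR8B libraries all lay above the GFP libraries with IFNB, at 71.2 to 88.9 CPM against 62.9 and 71.0 CPM. Among all tested genes, 9.6% were higher without overlap in that comparison. The closest pair, LTR8B replicate 4 at 71.2 and GFP replicate 1 at 71.0 CPM, almost touched. The log2 difference was 0.32 (SE 0.10, 95% interval 0.10 to 0.54, unadjusted p = 0.00684, edgeR adjusted p = 0.314). In untreated cells it was 0.14 (SE 0.12, adjusted p = 0.675), and averaged over treatments 0.23 (SE 0.08, adjusted p = 0.146). With no filter on low counts NLRC5 passed with IFNB (0.34, adjusted p = 0.0309) and in the average (0.23, adjusted p = 0.0288), and without GFP IFNB replicate 2 the value with IFNB was 0.24 (adjusted p = 0.997).

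HLA-C and HLA-F were higher in all untreated LTR8B libraries than in both untreated GFP libraries, which held for 10.2% of all tested genes. HLA-C stood at 26.8 to 30.7 CPM in LTR8B cells, against 25.0 and 26.7 CPM in GFP cells, a log2 difference of 0.15 (SE 0.11, adjusted p = 0.640). For HLA-F the 19 pooled LTR8B counts against 4 GFP counts gave a ratio of 2.51 (exact 95% interval 0.833 to 10.1), and with IFNB 161 against 76 counts gave 1.21 (0.913 to 1.61). Both intervals include 1. HLA-F averaged over treatments had an unadjusted p of 0.0322 and an adjusted p of 0.262.

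**Figure D5:**
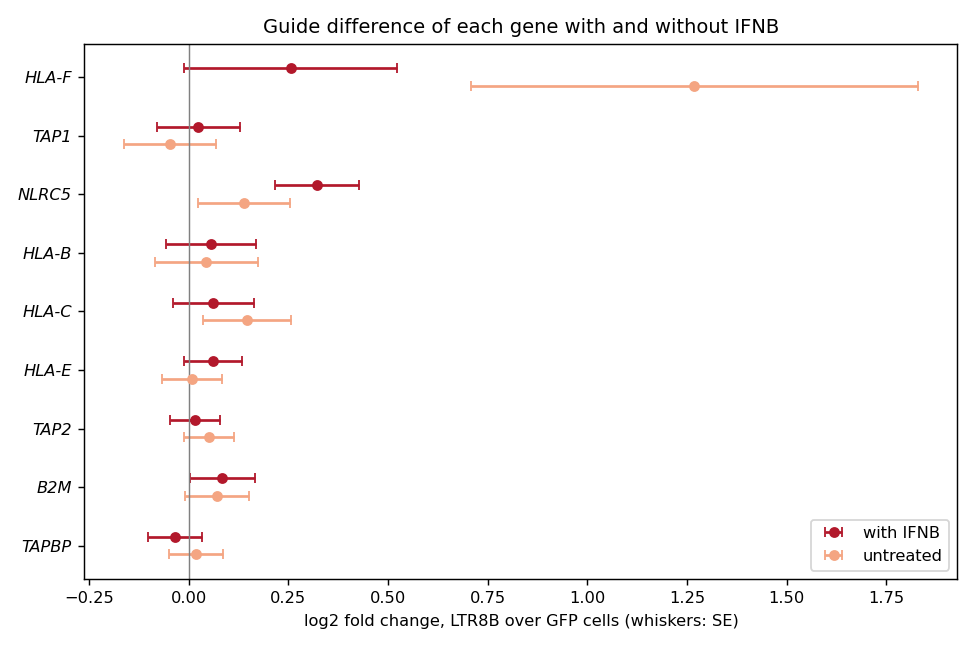
Log2 fold change of LTR8B over GFP cells for each gene, with IFNB (red) and untreated (orange), from edgeR with SE whiskers. NLRC5 with IFNB at 0.32 lies farthest from 0 among the 8 genes with ample counts, and the untreated HLA-F point rests on 19 and 4 counts.

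Averaged over treatments, 2.14% of tested genes differed between the guides and 0 of the 9 did, with 2, NLRC5 and HLA-F, at an unadjusted p under 0.05, where 2593 of the 16393 tested genes were too. The interaction asks whether the IFNB response itself differed between LTR8B and GFP cells. No gene passed by edgeR (0.0% of tested genes), by DESeq2 or by limma-voom, while 489 genes, none of the 9, had an unadjusted edgeR p under 0.05. For TAP1 the difference of the log2 responses was 0.07 (95% interval -0.26 to 0.40), for HLA-B 0.01 (-0.35 to 0.37), for HLA-C -0.08 (-0.40 to 0.23), and for HLA-E 0.05 (-0.17 to 0.27). B2M gave 0.01 (-0.23 to 0.25), TAP2 -0.04 (-0.22 to 0.15), TAPBP -0.05 (-0.26 to 0.15) and NLRC5 0.18 (-0.14 to 0.51). HLA-F, with few untreated counts, gave -1.01 (SE 0.62). Differences in response within these bounds cannot be told from none here, and adjusted p was 0.996 or more for all 9.

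Other genes of peptide supply responded in part. Of 17 listed, 16 were tested, and 8 rose in LTR8B cells and 7 in GFP cells, the same 7 in both. Over all tested genes, 4.01% rose in LTR8B cells and 3.06% in GFP cells. The median log2 fold change of the listed genes was 0.40 in LTR8B and 0.41 in GFP cells. The immunoproteasome subunit PSMB9 averaged 33.3 ± 4.10 CPM in LTR8B IFNB and 6.31 ± 0.742 CPM in LTR8B untreated libraries (SD, n = 4 each), and 33.9 ± 5.39 CPM in GFP IFNB and 7.85 ± 0.977 CPM in GFP untreated libraries (SD, n = 2 each). It rose by 2.39 on the log2 scale in LTR8B cells (SE 0.12, adjusted p = 5.00e-11) and by 2.10 in GFP cells (SE 0.16, adjusted p = 4.20e-08). PSMB8, another immunoproteasome subunit, rose by 1.34 in LTR8B cells (adjusted p = 7.23e-10) and 1.08 in GFP cells (adjusted p = 2.08e-06). LNPEP, an aminopeptidase that trims peptides in endosomes, rose by 0.89 in LTR8B cells (adjusted p = 3.59e-05) and 1.22 in GFP cells (adjusted p = 6.33e-05).

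The proteasome activator subunits PSME1 and PSME2 and the reticulum aminopeptidases ERAP1 and ERAP2 completed the 7. ERAP2 averaged 152 ± 4.70 CPM in LTR8B IFNB and 108 ± 5.70 CPM in LTR8B untreated libraries (SD, n = 4 each), and 154 ± 2.91 CPM in GFP IFNB and 108 ± 3.42 CPM in GFP untreated libraries (SD, n = 2 each). It rose by 0.49 in LTR8B cells (adjusted p = 4.33e-06) and by 0.52 in GFP cells (adjusted p = 1.84e-04). PSMB10 passed in LTR8B cells (0.65, adjusted p = 0.00565) and not in GFP cells (0.57, adjusted p = 0.143), and the difference between the responses was 0.08 on the log2 scale (SE 0.22, adjusted p = 0.996). The chaperones CALR, CANX, PDIA3 and HSPA5, together with TAPBPL, PSME3, SPPL2A and SEC61A1, did not pass in either line. Between the guides, ERAP1 was the only one of the 16 to pass, in the average over treatments, where 2.14% of all tested genes passed. Its mean was 75.0 CPM in LTR8B IFNB against 65.7 CPM in GFP IFNB libraries, and 56.9 CPM in LTR8B untreated against 48.9 CPM in GFP untreated libraries. Its log2 difference was 0.20 (SE 0.04, adjusted p = 0.0236), and it depended on single libraries. Adjusted p was 0.0802 or 0.145 when either untreated GFP library was dropped (replicate 1 or 2), 0.118 when the first GFP IFNB library was, and 0.0520 when the second LTR8B IFNB library was.

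Of 18 regulators of class I promoters, 7 rose in LTR8B cells and 6 in GFP cells, the same 6 in both, among them IRF1, IRF2 and IRF9. Over all tested genes, 4.01% rose in LTR8B cells and 3.06% in GFP cells. The median over the list was 0.07 in LTR8B and 0.16 in GFP cells, beside -0.01 over all genes in each. IRF9, the DNA-binding part of ISGF3, averaged 109 ± 8.44 CPM in LTR8B IFNB and 4.58 ± 0.655 CPM in LTR8B untreated libraries (SD, n = 4 each), and 119.7 ± 7.21 CPM in GFP IFNB and 4.07 ± 0.822 CPM in GFP untreated libraries (SD, n = 2 each). It rose by 4.55 on the log2 scale in LTR8B cells (SE 0.10, adjusted p = 6.23e-16) and by 4.86 in GFP cells (SE 0.15, adjusted p = 8.29e-14). STAT2 rose by 2.28 and IRF1 by 1.60 in LTR8B cells (adjusted p = 4.83e-14 and 7.44e-11), and by 2.31 and 1.56 in GFP cells (adjusted p = 1.01e-11 and 2.11e-08). Of the enhanceosome proteins through which NLRC5 acts, RFX5 rose by 0.21 in LTR8B cells (adjusted p = 0.0383; GFP 0.23, adjusted p = 0.200) and NFYA fell by 0.25 on the log2 scale in LTR8B cells (adjusted p = 0.0162; GFP -0.22, adjusted p = 0.271). RFXAP, RFXANK, NFYB, NFYC and CREB1 did not pass in either line.

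Class I-like molecules outside the peptide loading route moved little. Of 11 listed, 8 were tested, with median log2 fold changes of 0.15 in LTR8B and 0.04 in GFP cells. Beside 4.01% and 3.06% of all tested genes, 1 of the 8 rose in LTR8B cells and 0 in GFP cells. That gene was PROCR, an endothelial protein C receptor with a class I-like fold, at 66.8 ± 4.55 CPM in LTR8B IFNB and 52.5 ± 3.51 CPM in LTR8B untreated libraries (SD, n = 4 each; log2 0.35, adjusted p = 0.00380), and at 68.4 ± 6.60 CPM in GFP IFNB and 61.7 ± 1.18 CPM in GFP untreated libraries (SD, n = 2 each; 0.15, adjusted p = 0.598). MICA, a stress ligand of the natural killer receptor NKG2D, stayed between group means of 12.4 and 14.0 CPM.

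MHC class II genes, the counterpart that presents extracellular peptides, were at low levels. Of 12 listed, 5 had enough counts to be tested, and 0 passed in either line, with 0 of 5 in LTR8B and 2 of 5 in GFP cells at an unadjusted p under 0.05, beside 2110 of all 16393 tested genes in LTR8B and 1849 in GFP cells. Their transactivator CIITA, related to NLRC5, averaged 0.443 ± 0.192 CPM in LTR8B IFNB and 0.378 ± 0.0829 CPM in LTR8B untreated libraries (SD, n = 4 each), and 0.996 ± 0.142 CPM in GFP IFNB and 0.306 ± 0.166 CPM in GFP untreated libraries (SD, n = 2 each). The interaction for CIITA was -1.53 on the log2 scale (SE 0.67, unadjusted p = 0.0352, adjusted p = 0.996), at counts too low for a firm statement.

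The genes whose pattern over the 12 libraries was most like the mean of the 9 were N4BP1, ADAR (an RNA-editing enzyme), PRKD2 (a protein kinase), OGFR and IL15RA (the interleukin-15 receptor alpha chain). Likeness was the root mean square difference of log2(CPM + 1), centred on untreated GFP cells, among 9571 genes that averaged at least 10 CPM, and it was 0.0656, 0.0832, 0.0988, 0.102 and 0.102 for these 5. On this scale the mean of the 9 stood at 1.49 in LTR8B IFNB, 0.06 in LTR8B untreated and 1.41 in GFP IFNB libraries, and N4BP1 at 1.52, 0.06 and 1.49. The mean of the 9 includes HLA-F, which had to differ with IFNB and averaged less than the 10 CPM asked of other genes. For NLRC5 alone the nearest genes were SLC25A28 (0.147), ZNFX1 (0.178) and PML (0.182). SLC25A28, a mitochondrial iron carrier, stood at 2.03, 0.01 and 1.95 in those 3 groups, beside 2.14, 0.12 and 1.83 for NLRC5.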

How the data were processed

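RNA from 12 HT1080 libraries in 4 groups was sequenced. Salmon 0.13.1, DESeq2 1.38.3 and the hg38 build are named in the submitters' processing notes; for their settings, the annotation and any use of strand, nothing is stated in the labels or headers. Raw counts per Ensembl gene, whole numbers as deposited, gave every result. The deposited normalized table, a signal, equals those counts divided by a factor per library (0.600 to 1.46) and was used only for that check. Total counts were 12404270 to 28801579; no replicate pair agreed within sampling noise (chi-square per degree of freedom 2.65 to 17.0).

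Of 60669 identifiers, 42052 had a symbol. Genes were kept by edgeR's filterByExpr (minimum count 10, total 15), scaled by TMM and fitted over all 4 groups with edgeR's quasi-likelihood test (edgeR 4.0.16, R 4.3.3); p-values were adjusted by Benjamini-Hochberg over 16393 genes, with 0.05 as the threshold. All 9 genes were to be named, and from each related list up to 4 with the smallest adjusted p (the larger of the 2 lines'), plus peptide loading genes past the threshold between guides; PSMB10, PSME1, PSME2, RFX5, NFYA and other list members were named after their values were seen. One gene that this rule names is not reported here. Alternatives were DESeq2 1.42.0, limma-voom (limma 3.58.1), DESeq2 size factors, no filter, only the groups compared, the replicate number as a block, and leaving out each library. Ratios and lengths by transcript were added after the data were seen. The scripts were tested on simulated data. Other steps ran in Python 3.11.15 (NumPy 2.4.6, pandas 2.3.3, matplotlib 3.10.9, SciPy 1.17.1). Positions and lengths come from GENCODE 29. The genes described and the lists were chosen with earlier results of these data known. Intervals on counts cover counting error only.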

Additional observations from a re-analysis of the deposited data

Results flagged for a closer look

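In 24 sets of 4 values tested for a sample far from the others, 2 values stood apart, and chance flags about 1 in 20 such sets. All sets came from the LTR8B groups, the only ones with 4 libraries. The same libraries recur in them, so the sets are not independent. B2M in LTR8B untreated replicate 4 was at 469 CPM, against 538 to 549 CPM in the other 3 libraries. NLRC5 in LTR8B IFNB replicate 4 was at 71.2 CPM, against 86.4 to 88.9 CPM in the other 3. Both libraries had the highest mitochondrially encoded share of their group, 4.55% and 3.97%, and the part of this in the values was not tested.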

How the results depend on the processing

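The IFNB calls held in LTR8B cells under 162 of 162 combinations of gene and alternative, and in GFP cells under 161 of 162, the exception being B2M without GFP untreated replicate 2; these totals include HLA-F, which had to differ. The few untreated HLA-F counts and the GFP groups of 2 limit the precision of the guide results. A library left alone in a group is assumed to vary like the other groups. The cause of the changes below was not tested.

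Genes differing between guides in untreated cells numbered 59, with 177 by DESeq2, 325 without the filter, and 23 to 93 with single libraries left out (34 and 23 without the first and second untreated GFP library, 93 without LTR8B untreated replicate 2). With IFNB they numbered 58, with 120 by DESeq2, 260 without the filter, and 20 to 68 with libraries left out (20 without GFP IFNB replicate 2, 36 without LTR8B IFNB replicate 2). Averaged, they numbered 351, with 590 by DESeq2, 775 without the filter, and 100 to 459 with libraries left out (195 and 100 without GFP untreated replicate 1 and 2, 185 and 158 without GFP IFNB replicate 1 and 2). Interaction calls numbered 0, with 13 without the filter and 0 to 1 with libraries left out (1 without GFP untreated replicate 1). TAPBP in GFP IFNB libraries averaged 190.6 CPM by DESeq2 size factors.

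Whether replicate numbers pair the samples was not settled. Same-number treated and untreated LTR8B libraries correlated at 0.278, 0.288, 0.0794 and 0.268, and different-number ones at -0.255 to 0.0875. Untreated replicate 3 correlated best with IFNB replicate 4. In GFP cells the values were 0.146 and -0.146, which 2 libraries per group force to mirror each other. Between guides, same-number libraries correlated at -0.191 to -0.0542. Blocking by number gave 1040 IFNB calls in LTR8B and 747 in GFP cells, against 737 and 524 without it. With the replicate number as a block, averaged guide calls numbered 181 and interaction calls 4. NLRC5 then passed between guides by edgeR with IFNB (0.41, adjusted p = 0.0356) and averaged (0.32, adjusted p = 0.0195). ERAP1 did not pass in the average (edgeR adjusted p = 0.0846), and the averaged TAP1 difference was 0.032. Only LTR8B cells had replicates 3 and 4, so with this block those libraries informed the guide differences little.

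Some log2 values near 0, or of low counts, changed sign. With libraries left out, the IFNB response ran from -0.0019 to 0.48 for CIITA in LTR8B cells, and in GFP cells from -0.025 to 1.01 for HLA-DMB and -0.30 to 0.14 for HLA-DPA1. Guide differences in untreated cells ran from -0.085 to 0.18 (HLA-B), -0.045 to 0.065 (HLA-E), -0.090 to 0.016 (TAP1) and -0.074 to 0.12 (TAPBP). With IFNB they ran from -0.040 to 0.17 (HLA-C), -0.014 to 0.14 (HLA-E), -0.061 to 0.12 (TAP1) and -0.043 to 0.078 (TAP2). Averaged, they ran from -0.015 to 0.12 (HLA-B), -0.0025 to 0.077 (HLA-E), -0.054 to 0.037 (TAP1) and -0.054 to 0.041 (TAPBP). The interaction ran from -0.12 to 0.14 (HLA-B), -0.19 to 0.024 (HLA-C), -0.023 to 0.13 (HLA-E), -0.052 to 0.075 (B2M), -0.014 to 0.16 (TAP1), -0.095 to 0.022 (TAP2) and -0.15 to 0.041 (TAPBP), and for HLA-B was -0.0089 by limma-voom.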
